A study of Mus musculus with 2 samples.

Results

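Chemokines of the CXC family guide cells by binding receptors that span the cell membrane. Cxcl12 signals through Cxcr4 and holds blood-forming and lymphoid cells in their niches, while Ackr3, an atypical receptor that binds Cxcl12 without coupling to G proteins in the usual way, takes the ligand up and so shapes its gradients. Cxcl13 is bound by Cxcr5 and draws B cells and follicular helper T cells into lymphoid follicles.

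The level of these 5 genes was read in 2 single-cell RNA sequencing libraries of mouse optic nerve, out of 32285 genes in the count tables, of which 26077 were detected. Members were chosen by their symbols, as 2 homeostatic ligands and the 3 receptors that bind them, and not by any measured value. All 5 were detected in each library.

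Both libraries carry the genotype NF1-OPG. In the study these are *Nf1* flox/mut; GFAP-Cre mice on a C57BL/6 background, in which every cell carries the germline mutant allele. Cre driven by the GFAP promoter removes the floxed allele in glial progenitors, while other cells keep it, and optic gliomas form. Nerves came from 12-week-old animals. The labels give 10 mice pooled for a suspension, whereas the study's methods count its libraries as samples of individual tumors, so whether a library stands for a pool or for 1 tumor, and what the spread between libraries covers, is not settled by these sources. The library called C-ON is titled as a control and the library called FMC_new is not, but their genotype labels are the same, and no treatment is given for either. There was therefore no contrast between groups. The libraries served as repeats of 1 condition, no p-value was calculated, and all intervals given are 95% intervals that cover counting error alone, since cells of a library share their source.

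After filtering, 8834 cells of C-ON and 16818 of FMC_new were kept, with medians of 6810.5 and 4676 unique molecular identifiers (UMIs, counts of single captured RNA molecules). The libraries shared 188 barcodes among kept cells. Of 64 clusters, 43 were placed by their markers in 17 cell classes, each called "-like", and 19.4% of cells stayed in unnamed clusters. A total of 13 classes held at least 20 cells in each library. FMC_new held pituitary cells and free pituitary RNA: the hormone genes *Gh* and *Prl* summed to between 2271 and 28508 CPM in its other named classes and to 0 CPM in those of C-ON. A level in CPM is the number of UMIs that a gene held in each 1000000 UMIs summed over the cells of 1 class in 1 library. Fewer UMIs of a gene can come from fewer expressing cells or from less RNA per cell, so the share of cells with a UMI is given beside the main levels. At these counts, an undetected gene is not shown to be absent.

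The coding sequence around the motif that names each family is shown so that members can be told apart at the base level. The sequences were read from GENCODE vM21 transcripts (build GRCm38), 5′ to 3′ on the coding strand. For the ligands, capitals mark the codons of the 2 cysteines that are parted by 1 residue, which give the CXC family its name. For the receptors, capitals mark the codons of the DRY motif at the inner end of the third membrane segment, a contact region for G proteins.
Cxcl12: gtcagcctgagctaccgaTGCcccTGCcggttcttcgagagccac
Cxcl13: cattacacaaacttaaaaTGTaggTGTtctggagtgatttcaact
Cxcr4: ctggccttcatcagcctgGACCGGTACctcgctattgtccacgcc
Cxcr5: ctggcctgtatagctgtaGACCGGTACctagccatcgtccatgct
Ackr3: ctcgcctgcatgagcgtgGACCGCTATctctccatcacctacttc

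Each window lies within exon 2 of its gene. The *Cxcl12* window is chr6:117171490-117171534 on the plus strand, the *Cxcl13* window chr5:95958646-95958690 (plus), the *Cxcr4* window chr1:128589494-128589538 (minus), the *Cxcr5* window chr9:44513891-44513935 (minus) and the *Ackr3* window chr1:90214223-90214267 (plus). Over 45 bases aligned at the motif, *Cxcr4* matched *Cxcr5* at 32 and *Ackr3* at 31, and *Cxcr5* matched *Ackr3* at 27. The ligands matched each other at 10. The genes are ENSMUSG00000061353 (*Cxcl12*, chromosome 6, 117168535 to 117181367), ENSMUSG00000023078 (*Cxcl13*, chromosome 5, 95956951 to 95961068), ENSMUSG00000045382 (*Cxcr4*, chromosome 1, 128588199 to 128592293), ENSMUSG00000044337 (*Ackr3*, chromosome 1, 90203980 to 90216751) and ENSMUSG00000047880 (*Cxcr5*, chromosome 9, 44511787 to 44561877). *Cxcr5* overlaps *Bcl9l* on the opposite strand. Whether counting used the strand is not given in the sources used here, so part of the *Cxcr5* count could come from *Bcl9l* reads.

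*Cxcl12* was a fibroblast gene in these nerves. Fibroblast-like cells, the collagen-producing cells of the nerve sheath and vessel surroundings, held *Cxcl12* at 193 CPM in C-ON (interval 161 to 229, 105 cells) and 147 CPM in FMC_new (132 to 164, 472 cells). They made up 1.19% and 2.81% of the cells and held 81.8% and 60.5% of all *Cxcl12* UMIs. Among the 13 classes with at least 20 cells in each library, the next, border macrophage-like cells, stood at 5.19 and 1.69 CPM, from 3 and 2 UMIs, so the ranges of these 2 did not overlap. *Cxcl12* was at least 4-fold higher in fibroblast-like cells than in all other named classes together in each library, as were 5.7% of the 17268 genes tested, and it stood 1307-fold higher in C-ON and 314-fold higher in FMC_new. At least 1 UMI was found in 46.7% and 33.3% of the fibroblast-like cells. In T cell-like cells, which should lack the gene, it was found in 0 of 928 cells of C-ON, which allows a share of up to 0.323%, and in 0.191% of those of FMC_new. Median depths were 5497 and 3965.5 UMIs in fibroblast-like and 3407.5 and 3141.5 UMIs in T cell-like cells. B cell-like cells held 0 *Cxcl12* UMIs in each library.

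Within the fibroblast-like class, the *Cxcl12* level was higher in the smaller of 2 clusters. Cluster 56, led by the matrix genes *Dcn*, *Vtn* and *Lum*, had 52 cells and stood at 647 CPM in C-ON (489 to 841) and 649 CPM in FMC_new (525 to 793). At least 1 *Cxcl12* UMI was found in 61.9% and 74.2% of its cells. Cluster 19, led by *Ccn3*, *Mgp* and *Ecrg4* and holding *Slc47a1* in 89.3% and 71.4% of its cells, had 525 cells and stood at 126 CPM (98.8 to 158) and 115 CPM (101 to 130). Being larger, cluster 19 held most of the *Cxcl12* UMIs of the class, 74 against 56 in C-ON and 257 against 95 in FMC_new. The 2 clusters did not overlap in level, and each varied little between libraries. *Lum* marks the difference between them, at 1468 and 949 CPM in cluster 56 against 25.5 and 20.1 CPM in cluster 19. No cluster was named for endothelial or mural cells, the cells of vessel walls. At least 3 endothelial markers were found in 3 cells of C-ON and 11 of FMC_new, which held 3 and 7 *Cxcl12* UMIs, and 2 and 8 of these cells lay in the fibroblast-like class. The level of *Cxcl12* in vessel walls could not be read from so few cells.

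**Figure D1:**
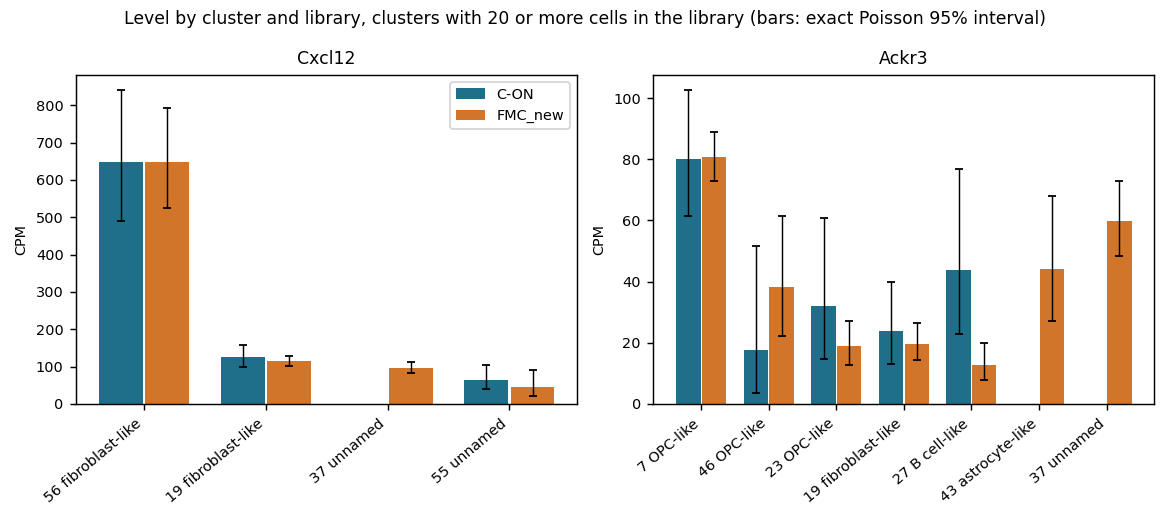
Level of *Cxcl12* (left) and *Ackr3* (right) in CPM for single clusters, by library, with exact Poisson 95% intervals; clusters under 20 cells in a library have no bar. *Cxcl12* stands at 647 and 649 CPM in cluster 56 and at 126 and 115 CPM in cluster 19, and *Ackr3* stands highest in OPC-like cluster 7.

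*Cxcl12* also appeared outside the named classes, with 12.6% of its UMIs in C-ON and 33.3% in FMC_new lying in unnamed clusters. Unnamed cluster 37, led by *Mia*, *Cyp2f2* and *Aldh1a2*, had 286 cells in FMC_new, where *Cxcl12* stood at 96.2 CPM and was found in 30.8% of cells. These leading genes were treated as pituitary ones when clusters were named, and FMC_new held pituitary cells. Whether the cells of cluster 37 came from the nerve was not tested. The 10 cells of that cluster in C-ON held 0 UMIs, which at their depth allows up to 71.7 CPM. Fibroblast matrix genes were near 0 there, with *Col1a1* at 0.629 CPM and *Dcn* at 2.52 CPM in FMC_new. Unnamed cluster 55, led by the neuropeptide gene *Avp* and by the neuronal gene *Stmn2*, had 55 cells and stood at 65.3 CPM in C-ON and 46.3 CPM in FMC_new, from 18 and 8 UMIs.

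*Cxcl13* was the member of the microglia. Microglia-like cells, the resident macrophages of nervous tissue, held it at 775 CPM in C-ON (725 to 827, 204 cells) and 3389 CPM in FMC_new (3347 to 3432, 1431 cells). That class made up 2.31% and 8.51% of the cells and held 81.9% and 72.3% of all *Cxcl13* UMIs. Border macrophage-like cells, the macrophages of the membranes and vessels, came next of the 13 classes at 190 and 405 CPM, below the lower of the 2 microglia-like values. *Cxcl13* was called at least 4-fold higher in microglia-like cells, as were 3.85% of genes, at 307-fold and 97.0-fold over the other named classes. Unnamed clusters, which these folds leave out, held 4.40% and 20.4% of the *Cxcl13* UMIs. The level was higher in FMC_new than in C-ON by more than counting error, and the spread between the libraries is part of the error of this value. Microglia identity genes were not higher in FMC_new: in cluster 4, which held most microglia-like cells, *P2ry12* stood at 886 and 705 CPM and *Tmem119* at 772 and 666 CPM. *Cxcl13* stood at 828 and 3395 CPM in that cluster. In cluster 14, the shallower microglia-like cluster, it stood at 144 CPM in C-ON, from 13 UMIs, and 3363 CPM in FMC_new.

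*Cxcl13* was uneven from cell to cell. A UMI was found in 22.1% of the microglia-like cells of C-ON and 55.1% of those of FMC_new, at median depths of 4635.5 and 4189 UMIs. At least 10 UMIs were found in 7.84% and 30.1%, and the highest cells held 231 and 593 UMIs. The tenth of cells with the most *Cxcl13* held 95.4% of its UMIs in C-ON and 67.9% in FMC_new. In C-ON, 2 cells of 204 reached 100 UMIs, so that the C-ON level rests on few cells. Most microglia-like cells of C-ON, 159 in all, held none.

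**Figure D2:**
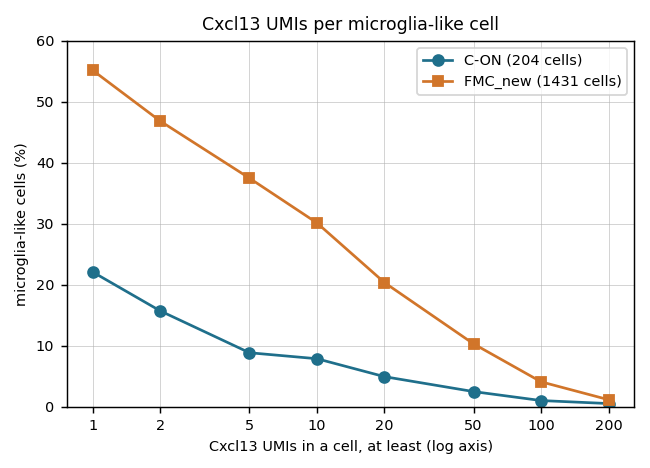
Share of microglia-like cells (per cent) that hold at least the number of *Cxcl13* UMIs on the log x axis, for the 204 cells of C-ON and the 1431 cells of FMC_new. The FMC_new curve lies above the C-ON curve throughout, starting at 55.1% against 22.1%.

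*Cxcl13* was higher in cells with activation genes in each library. Microglia-like cells with a UMI of *Cst7*, *Lpl* or *Spp1*, genes of activated, lipid-handling microglia, stood at 1292 CPM in C-ON (69 cells) and 5012 CPM in FMC_new (554 cells). Those without stood at 223 CPM (135 cells) and 1503 CPM (877 cells). The 2 sets did not overlap within a library, and the FMC_new value was the higher one in each set. In C-ON the gap rests on few cells, as 21 of the 204 microglia-like cells held 95.4% of the *Cxcl13* UMIs. The highest of them held 231 UMIs, and a counting interval does not cover such a spread between cells. Cells with such a UMI were also deeper, with medians of 8682 and 6641.5 UMIs against 3836 and 3014, and the part of depth in how cells fell into these sets was not tested. The 12 genes of the dissociation response list, immediate early and heat shock genes that rise during tissue digestion, summed to 23683 and 23764 CPM in microglia-like cells, against 4930 and 5113 CPM in T cell-like cells. Of the 12 genes, 4 were called higher in microglia-like cells. The part of digestion in the *Cxcl13* level was not tested.

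In oligodendrocyte-like cells, where *Cxcl13* should be missing, the level was 0.544 CPM in C-ON and 25.5 CPM in FMC_new, with a UMI in 0.451% and 6.26% of cells at median depths of 8079 and 7773.5 UMIs. T cell-like, B cell-like, plasma cell-like and OPC-like cells of FMC_new lay between 16.2 and 37.04 CPM, on both sides of that value, and no expression is read from them. The oligodendrocyte-like value of FMC_new includes cluster 38, with 254 cells, which stood above it, as given at the end. The value without that cluster is not given here. Fibroblast-like cells of FMC_new stood at 97.1 CPM, with a UMI in 8.69% of cells, while those of C-ON held 0 UMIs. The part of free RNA in these values was not tested. Unnamed cluster 6, led by *Cxcl2*, *Lyz2* and *Ms4a7* and mixed in its markers, had *Cxcl13* at 11.4 CPM in C-ON (214 cells) and 864 CPM in FMC_new (715 cells). Unnamed cluster 47, which held markers of OPC and microglia together, stood at 866 CPM in the 5 cells of C-ON and 3394 CPM in the 96 cells of FMC_new.

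*Ackr3* was highest in the OPC-like cells. This class carries markers of oligodendrocyte precursor cells, such as *Pdgfra*, and the tumor cells of this model cannot be told apart from normal precursors by them. *Ackr3* stood at 60.4 CPM in C-ON (47.4 to 75.8, 211 cells) and 64.1 CPM in FMC_new (58.3 to 70.3, 1247 cells), the smallest gap between libraries among the leading classes of *Cxcl12*, *Cxcl13*, *Ackr3* and *Cxcr5*. A UMI was found in 26.5% and 26.4% of OPC-like cells, against 0.108% and 0.0954% of T cell-like cells. OPC-like cells were deeper, at median depths of 5264 and 5573 UMIs against 3407.5 and 3141.5. The gene was called at least 4-fold higher in OPC-like cells, as were 8.53% of genes, at 50.7-fold and 25.0-fold.

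*Ackr3* differed among the 3 OPC-like clusters. Cluster 7, the largest, with *Pdgfra* in 97.8% and 97.4% of its cells, stood at 80.0 CPM (61.3 to 103) and 80.6 CPM (72.9 to 88.9). Cluster 23, led by *Gpr17* and *Tnr* and with *Pdgfra* in 62.2% and 42.3% of cells, stood at 32.0 CPM (14.6 to 60.7) and 18.998 CPM (12.8 to 27.1). Immunoglobulin variable genes were also among its leading genes. *Gpr17* did not part these clusters: it was found in 42.2% and 25.3% of cluster 23 and in 54.7% and 53.1% of cluster 7. The *Gpr17* levels were 192 and 252 CPM in cluster 23 and 225 and 204 CPM in cluster 7. *Neu4*, the other tumor marker of the study, was found in 86.9% and 85.5% of cluster 7. In cluster 23 it was found in 53.3% and 41.0% of cells, and in cluster 46 in 65.5% and 56.2%. Cluster 46, led by *Csmd1* and *Lrrtm4*, stood at 17.7 and 38.3 CPM from 3 and 17 UMIs. The ranges of clusters 23 and 46 overlapped, and both lay below that of cluster 7. Over both libraries, median UMIs were 6222.5 in cluster 7 and 2455 in cluster 23. Unnamed cluster 62, led by cell cycle genes and holding 8 OPC markers, stood at 47.4 CPM in the 22 cells of FMC_new. Among all OPC-like cells, *Ackr3* was found at 1000 UMIs in 8.53% (6.47 to 11.0) of those with a *Gpr17* UMI, a gene of precursors on the way to oligodendrocytes, and 5.47% (3.95 to 7.34) of those without, with overlapping intervals. *Cxcr4*, the other *Cxcl12* receptor, was found in 14 of the 385 OPC-like cells with an *Ackr3* UMI, or 3.64%, and in 4.29% of the rest. By library the order was not the same, at 12.5% against 5.81% in C-ON and 2.13% against 4.03% in FMC_new.

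*Ackr3* was seen in other non-immune cells. Fibroblast-like cells stood at 22.2 CPM (12.4 to 36.7) and 20.5 CPM (15.2 to 27.1), from 15 and 49 UMIs. The cells with at least 3 endothelial markers, most of which lay in that class, held 7 *Ackr3* UMIs in C-ON and 5 in FMC_new. The part of such cells in the fibroblast-like level was not tested. Unnamed cluster 37, with its pituitary-type leading genes, stood at 59.7 CPM in FMC_new, where 21.3% of its cells held a UMI. Astrocyte-like cluster 43 stood at 44.1 CPM in the 152 cells of FMC_new, with 0 UMIs in the 19 cells of C-ON. B cell-like cells stood at 43.9 CPM in C-ON, from 12 UMIs in 6 cells, and 12.8 CPM in FMC_new, from 19 UMIs in 14 cells. The fibroblast-like and B cell-like ranges overlapped. Microglia-like cells held 0 *Ackr3* UMIs in C-ON and 0.687 CPM in FMC_new. Of 39 fibroblast-like cells with an *Ackr3* UMI, 17 held a *Cxcl12* UMI too. *Cxcl12* was lower in cells with an *Ackr3* UMI than without in C-ON, at 95.6 against 205 CPM, and the order was the other way in FMC_new, at 159 against 146 CPM, so the libraries did not give 1 direction.

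**Figure D3:**
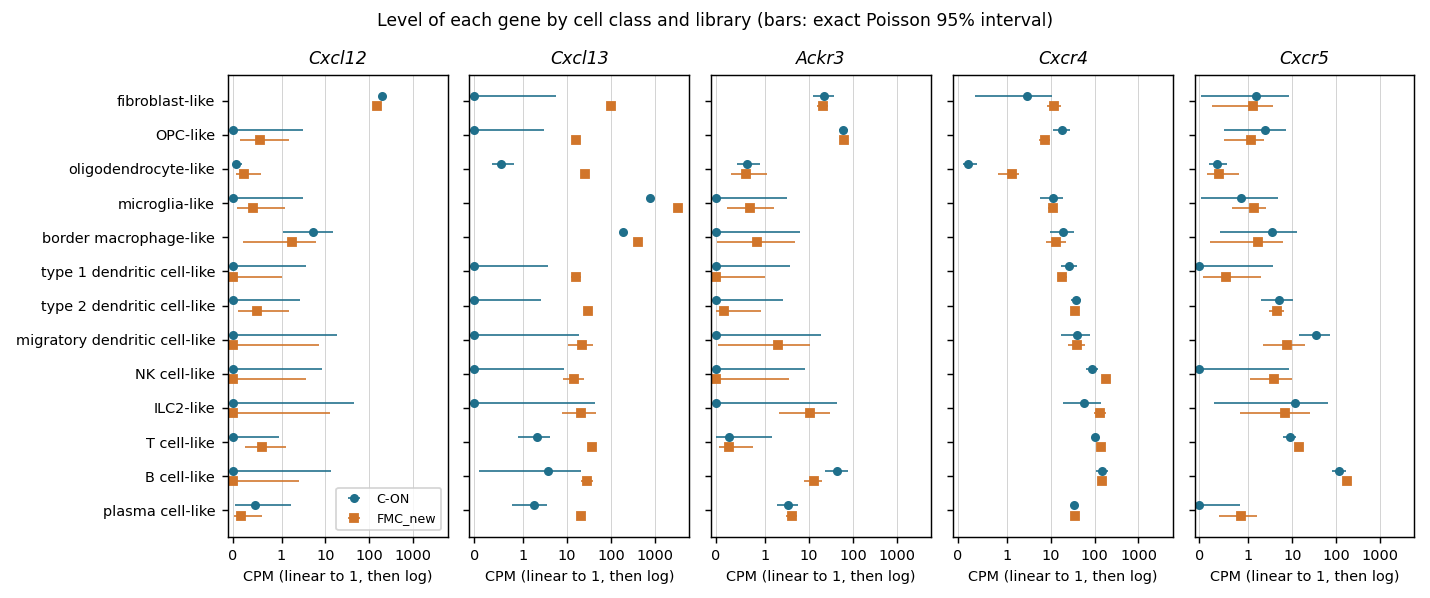
Level of the 5 genes in CPM (x axes linear to 1, then log) in the 13 classes with at least 20 cells in each library, one point for C-ON and one for FMC_new, with exact Poisson 95% intervals. *Cxcl12* is highest in fibroblast-like, *Cxcl13* in microglia-like, *Ackr3* in OPC-like and *Cxcr5* in B cell-like cells, while *Cxcr4* spreads over NK, B, T and ILC2-like cells.

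*Cxcr4* was spread over the lymphocytes. NK cell-like cells stood at 87.8 CPM in C-ON and 180 CPM in FMC_new, B cell-like cells at 150 and 147 CPM, T cell-like cells at 103 and 139 CPM and ILC2-like cells, type 2 innate lymphoid cells, at 58.9 and 135 CPM. The NK cell-like range overlapped that of the B cell-like cells, and the ILC2-like range that of the T cell-like cells, while the T cell-like values lay below both B cell-like values. B cell-like cells were the highest in C-ON and NK cell-like cells in FMC_new, so no class leads in both. Of the same 13 classes, migratory dendritic cell-like cells followed at 40.4 and 40.7 CPM, type 2 dendritic cell-like cells at 38.6 and 35.7 CPM and plasma cell-like cells at 34.3 and 35.5 CPM. Microglia-like cells stood at 11.1 and 11.3 CPM, OPC-like cells at 17.9 and 7.41 CPM and fibroblast-like cells at 2.96 and 12.1 CPM. In oligodendrocyte-like cells, which should lack the receptor, *Cxcr4* was found in 0.188% and 1.05% of cells, against 42.9% and 44.6% of B cell-like and 27.9% and 31.7% of T cell-like cells. *Cxcr4* was called at least 4-fold higher in T cell-like cells, as were 3.85% of genes, and in NK cell-like cells, as were 2.38%, at 7.12-fold and 4.82-fold. B cell-like cells stood at 12.2-fold in C-ON and 3.97-fold in FMC_new, just short of the call, so the calls do not set these classes apart. The NK call was lost when cells were thinned to 1000 UMIs, when cells were weighted equally, with edgeR TMM scaling, and without cells of mixed markers.

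*Cxcr4* varied among T and plasma cells. CD4 cells, with a *Cd4* UMI and none of *Cd8a*, *Cd8b1* or *Foxp3*, stood at 121 CPM (95.3 to 151) and 195 CPM (175 to 216). Regulatory cells, with a *Foxp3* UMI, stood at 97.2 and 156 CPM, and CD8 cells at 90.4 and 108 CPM. The order was CD4, regulatory and CD8 in each library, but in C-ON the intervals of all 3 overlapped, and in FMC_new those of the CD4 (175 to 216) and regulatory cells (136 to 177) did. Among plasma cell-like cells, antibody-secreting cells that use this receptor to stay in their niches, those with the most heavy-chain UMIs in an *Ighg* gene stood at 45.8 CPM in each library, from 99 and 296 UMIs. Those led by *Igha* stood at 23.5 and 23.2 CPM, from 53 and 124 UMIs. Median depths of these sets lay between 10375 and 11685 UMIs, and the intervals did not overlap in either library.

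*Cxcr5* was the B cell receptor. B cell-like cells stood at 117 CPM in C-ON (80.1 to 165, 49 cells) and 175 CPM in FMC_new (155 to 198, 305 cells), with a UMI in 44.9% and 49.5% of cells against 0.301% and 0.183% of oligodendrocyte-like cells. The median depths were 4497 and 4206 UMIs in B cell-like and 8079 and 7773.5 UMIs in oligodendrocyte-like cells. *Cxcr5* was called at least 4-fold higher in these cells, as were 1.74% of genes, at 100-fold in C-ON and 54.2-fold in FMC_new. The class is 1 cluster, with *Ms4a1*, the gene of CD20, in 85.7% and 87.2% of cells. All 5 genes were called at least 4-fold lower in oligodendrocyte-like cells, as were 25.6% of genes. In plasma cell-like cells *Cxcr5* was close to absent, at 0 UMIs in 420 cells of C-ON, which allows a share of up to 0.714%, and 0.845 CPM in FMC_new. Migratory dendritic cell-like cells stood at 35.3 and 7.76 CPM, from 7 and 4 UMIs. T cell-like cells stood at 8.69 and 14.1 CPM, inside that range. Of the 173 B cell-like cells with a *Cxcr5* UMI, 78 also held a *Cxcr4* UMI, and *Cxcr4* stood at 129 CPM in them against 171 CPM in those without. In C-ON alone the order was the other way, at 160 against 141 CPM. Thinned to 1000 UMIs per cell, the *Cxcr4* shares were 11.6% (7.25 to 17.4) and 16.9% (11.7 to 23.2), with overlapping intervals.

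**Figure D4:**
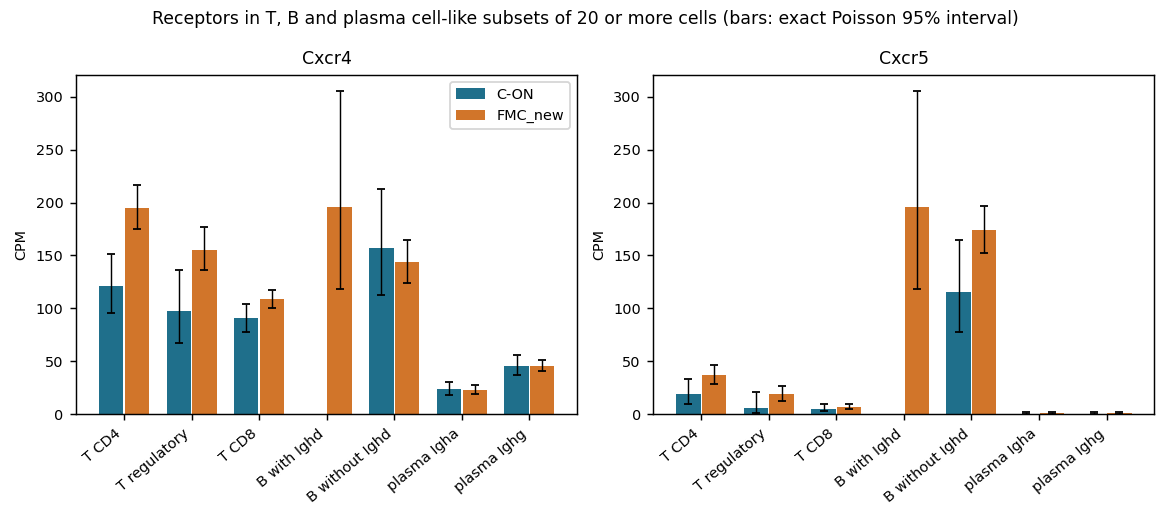
Level of *Cxcr4* (left) and *Cxcr5* (right) in CPM in T, B and plasma cell-like subsets by library, with exact Poisson 95% intervals; subsets under 20 cells in a library have no bar. *Cxcr4* is higher in *Ighg*-led than in *Igha*-led plasma cell-like cells in each library, and *Cxcr5* is near 0 in both.

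Among the T cell-like subsets, the *Cxcr5* level was highest in CD4 cells. These stood at 18.8 CPM in C-ON and 36.7 CPM in FMC_new, from 12 of the 34 and 65 of the 163 *Cxcr5* UMIs of all T cell-like cells, so most UMIs lay outside this set. CD8 cells stood at 5.18 and 6.66 CPM, and regulatory cells at 5.89 and 18.6 CPM. Cluster 1, led by *Tnfrsf4*, *Izumo1r* and *Ctla4* and with *Foxp3* among its 10 leading genes, stood at 24.7 and 37.3 CPM. T cell-like cells with a *Cxcr5* UMI numbered 157 and held a *Cd4* UMI in 46.5% of cases, against 22.5% of the other T cell-like cells. Median UMIs were 4602 against 3156, so shares were also taken from cells thinned to 1000 UMIs.

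Genes of follicular helper T cells, the T cells that help B cells in follicles, were more often found in the *Cxcr5* positive cells. At 1000 UMIs, *Bcl6*, their lineage factor, was found in 11.5% (6.98 to 17.6) of the *Cxcr5* positive and 4.11% (3.50 to 4.79) of the other T cell-like cells. *Slamf6* was found in 26.3% and 7.05%, *Cd200* in 28.2% and 9.75%, *Tox2* in 14.1% and 3.87% and *Sh2d1a*, which codes the adaptor SAP, in 31.4% and 15.2%. *Pdcd1*, the gene of PD-1, was found in 36.5% and 25.9%. For these 6 of the 9 listed genes the intervals did not overlap, while for *Icos*, *Il21* and *Cd40lg* they did. By the same rule, 3.19% of the 8508 genes found in at least 1% of the thinned T cell-like cells were higher with a *Cxcr5* UMI and 1.66% were lower. *Cd40lg* was found in 7.05% against 7.79%. By the 4-fold rule, 7 of the 9 genes were called higher in T cell-like cells as a whole, *Bcl6* and *Cd200* not among them. Before thinning, *Bcl6* was found in 34.8% against 11.9% in C-ON and 33.6% against 11.4% in FMC_new. Within CD4 cells, *Bcl6* was found, unthinned, in 26 of the 60 cells with a *Cxcr5* UMI, or 43.3%, and in 12.6% of the rest. The thinned shares pool both libraries and all T cell-like subsets, and values within CD4 cells are not given for the other genes. *Slamf6* was also called higher in B cell-like cells, at 102 and 118 CPM against 52.7 and 100 CPM in T cell-like cells. Doublets were not removed, and their part in these shares was not tested.

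**Figure D5:**
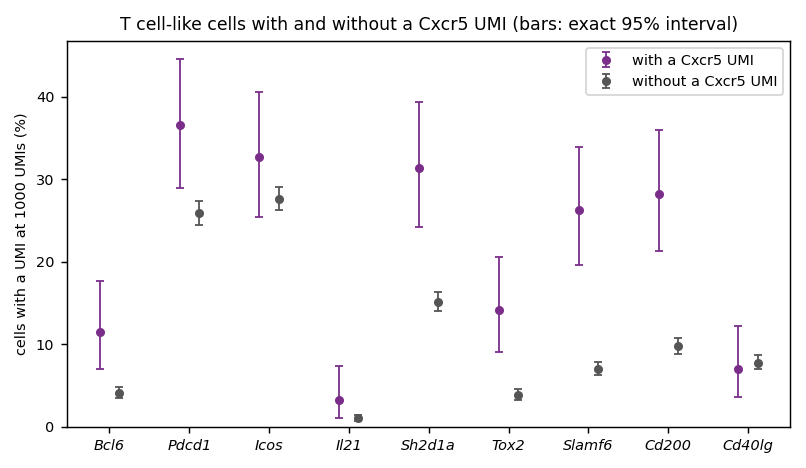
Share of T cell-like cells (per cent, each cell thinned to 1000 UMIs) with a UMI of each of 9 follicular helper genes, for cells with and without a *Cxcr5* UMI in the 2 libraries together, with exact Clopper-Pearson 95% intervals. The intervals part for *Bcl6*, *Pdcd1*, *Sh2d1a*, *Tox2*, *Slamf6* and *Cd200*.

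Other genes of these pathways were counted by the same 4-fold rule, in each direction. Called lower among all genes were 13.6% in fibroblast-like, 22.1% in microglia-like, 8.96% in OPC-like, 13.9% in T cell-like, 25.6% in B cell-like, 35.6% in plasma cell-like and 22.9% in NK cell-like cells. Of the 16 *Cxcl12* axis partners, 0 were called higher and 1 lower in fibroblast-like cells, and likewise 0 and 1 in OPC-like cells. T cell-like and NK cell-like cells were called higher for 2 and lower for 2 each, B cell-like cells higher for 1 and lower for 2, and plasma cell-like cells higher for 0 and lower for 2. *Rgs1*, a brake on G protein signalling downstream of chemokine receptors, was called higher in T cell-like cells at 498 and 578 CPM and in NK and B cell-like cells, and *Rgs16* in T cell-like cells at 86.7 and 87.8 CPM. Median folds of the list in T cell-like cells were 2.82 and 1.56, against 0.809 and 0.834 for all genes tested. Of the 17 lymphoid tissue organisers, 14 had the 50 UMIs needed, and *Ccl19*, *Ccl21a* and *Madcam1* did not. B cell-like cells were called higher for 4 of the 14 and lower for 3, the higher ones being *Lta*, *Ltb*, *Ccr7* and *Gpr183*, with *Ltb*, a chain of the lymphotoxin that induces *Cxcl13* in follicles, at 886 and 1029 CPM. Microglia-like cells were called lower for 3 and higher for 3, *Tnf*, *Vcam1* and *Icam1*, with *Vcam1* at 108 and 96.1 CPM. *Tnf* and *Vcam1* were also called higher in border macrophage-like cells, where *Vcam1* stood at 168 and 240 CPM. Fibroblast-like cells were called lower for 5 and higher for 1, *S1pr1*, at 56.3 and 53.2 CPM. T cell-like cells were called lower for 1 and higher for 4, *Lta*, *Ltb*, *Tnfsf11* and *Il7r*. Median folds of this list were 0.137 and 0.313 in fibroblast-like cells, against 0.918 and 0.954 for all genes, and 3.44 and 1.40 in microglia-like cells, against 0.684 and 0.665.

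Of the 11 B lineage survival factors, microglia-like cells were called lower for 3 and higher for 3, *Tnfsf13b*, *Il6* and *Il6ra*, with *Tnfsf13b*, which codes the B cell factor BAFF, at 43.4 and 64.6 CPM. Fibroblast-like cells were called lower for 4 and higher for 1, *Tnfsf13*, which codes the plasma cell factor APRIL, at 57.8 and 77.0 CPM. *Tnfsf13* was also called higher in border macrophage-like cells, as were 2.47% of genes, and stood above the fibroblast-like level there, at 74.4 and 111 CPM. B cell-like cells were called lower for 1 and higher for 3, and plasma cell-like cells lower for 2 and higher for 3. The receptors *Tnfrsf13b* and *Tnfrsf13c* were called higher in both, *Cd40* in B cell-like cells, and *Tnfrsf17*, which codes BCMA, in plasma cell-like cells at 28.0 and 38.4 CPM, where 1.63% of genes were called higher. The median folds of this list in microglia-like cells were 3.44 and 2.01, against the same 0.684 and 0.665.

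The genes whose levels ran most like each member over the 30 pairs of class and library were found among 17840 genes, as a description of points that share libraries and classes. For *Cxcl12* they were *Ccn2* (Pearson r = 0.963), *C1qtnf7*, *Lum*, *Pgm5* and *Ccl11*. For *Cxcl13* they were *Ccl12* (r = 0.871), *C1qc*, *C1qb*, *Trem2* and *C1qa*. For *Ackr3* they were *Ddx25* (r = 0.864), *Mapk12*, *Dcbld1*, *Gstt1* and *Sox5*. For *Cxcr4* they were *Tbc1d10c* (r = 0.905), *Itgal*, *Rac2*, *Fam107b* and *Psd4*, and for *Cxcr5* *Ccr6* (r = 0.846), *Zbtb32*, *Fcrl5*, *Lta* and *Fam129c*.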

How the data were processed

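Count matrices of 2 libraries were used as deposited: raw UMI counts per gene and barcode, as whole numbers, which the authors made with Cell Ranger (7.2.0 in the submitters' processing notes and the file headers) on mm10 from a 10x 5' v2 kit. Whether intronic reads were counted is not given in the sources used here. Totals were 85101211 UMIs in C-ON (10845 barcodes) and 129113325 in FMC_new (21341 barcodes). The members, lists and markers were chosen with earlier results of these data known.

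Cells with 500 to 5000 genes, 500 to 20000 UMIs and at most 5% mitochondrial UMIs were kept, after the study's filter. Seurat 5.3.0 (R 4.3.3) was used for log normalization, 2000 variable features with the members removed, CCAIntegration, 30 components and clusters at a resolution of 2. The rest ran in Python 3.11.15, using scanpy 1.11.5, pandas 2.3.3, scipy 1.17.1 and numpy 2.4.6. Alternatives were another resolution, each library alone, classes from markers per cell, other cell filters, thinned cells, equal weights for cells, free RNA subtracted, TMM factors, a 2-fold rule, each library left out and, added later, cells of mixed markers left out.

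A cluster of at least 20 cells was named from lists of 26 classes when at least 3 markers were found in 20% of its cells at 2 times the mean of clusters. How ties, pituitary and immunoglobulin leading genes take a name away was settled after the leading genes of clusters had been seen. UMIs were summed by class and library. CPM have exact Poisson intervals and shares exact Clopper-Pearson intervals. A gene was called where its fold over the other named classes reached 4 in each library, for genes with at least 50 UMIs; there was no test. A count of 0 allows up to 3 counts. Named genes are the members, the lists, for each member the 5 genes most alike by Pearson r of log2(CPM + 1), and leading genes of clusters; other genes named were chosen after their values were seen. Of the kept cells, 25040 were thinned to 1000 UMIs, and 612 were too shallow. Scrublet, run per library, marked 1 cell in C-ON and 0 in FMC_new, so it did not work, and doublets were not removed. The fold rule was tested on simulated data.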

Additional observations from a re-analysis of the deposited data

How the results depend on the processing

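The limits are the 2 libraries of 1 condition, doublets that were not removed, rebuilt class names and classes of few cells, such as the 49 B cell-like cells of C-ON. The class with the highest level was the same under all 13 alternatives for *Cxcl12*, *Cxcl13*, *Ackr3* and *Cxcr5*, and under 10 of 13 for *Cxcr4*, where B cell-like replaced NK cell-like cells with TMM factors (edgeR 4.0.16), without cells of at least 3 markers of another class (12411 of 25652 cells; chosen after seeing the data) and in C-ON alone. *Cxcl12* in fibroblast-like cells, 157 CPM over both libraries, became 198 with each library clustered alone and 226 with classes from markers per cell. *Ackr3* in OPC-like cells, 63.5 CPM, became 59.0 at a resolution of 0.8, 71.0 with libraries alone, 69.9 with markers per cell, 75.9 in thinned cells, 56.3 without cells of mixed markers and 49.3 with TMM factors. Leaving out each library in turn gave 147 to 193 CPM for *Cxcl12*, 60.4 to 64.1 for *Ackr3*, 775 to 3389 for *Cxcl13*, 117 to 175 for *Cxcr5* and 87.8 to 180 for *Cxcr4*.

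Genes called higher numbered 984 in fibroblast-like, 665 in microglia-like, 1473 in OPC-like, 664 in T cell-like, 301 in B cell-like and 411 in NK cell-like cells. Thinned cells gave 511, 360, 886, 417, 175 and 214, at least 2-fold gave 1936, 1547, 2848, 1650, 1084 and 1422, and TMM factors gave 261 for NK cell-like cells. Leaving out each library gave 1117 to 1981, 727 to 1669, 1834 to 2396, 711 to 1670, 380 to 1377 and 513 to 1466. *Cxcl12* in fibroblast-like, *Cxcl13* in microglia-like, *Ackr3* in OPC-like, *Cxcr5* in B cell-like and *Cxcr4* in T cell-like cells were called under all 14 alternatives to the fold rule, its settings and the left-out libraries. With C-ON as the single library and without cells of mixed markers, calls were added for *Ackr3* in fibroblast-like and B cell-like, *Cxcr5* in T cell-like and *Cxcr4* in B cell-like cells. The 2-fold rule added the same calls except that of *Ackr3* in B cell-like cells. *Cxcr4* was also called in B cell-like cells with markers per cell, with all barcodes and with at least 1000 genes per cell. The cause of these moves was not tested. No paired analysis was possible because both libraries belong to 1 group.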

Other observations

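B precursor cells, from which B cells arise, formed no cluster, but 5 cells of C-ON and 30 of FMC_new held at least 3 of their markers. Those of FMC_new held 19 *Cxcr4* UMIs in 11 cells and 0 *Cxcr5* UMIs, and those of C-ON held 0 UMIs of both receptors. At least 3 mast cell markers were found in 4 cells of each library, which held 1 *Cxcr4* UMI in each.

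*Cxcl13* was also found in clusters that lay wholly or mostly in FMC_new. Unnamed cluster 60, with immunoglobulin variable genes and *Ch25h* among its leading genes, stood at 1436 CPM, with a UMI in 29 of 29 cells. Unnamed cluster 63, led by *Il1rn*, *Acod1* and *Tnf*, had 18 cells and stood at 795 CPM. Oligodendrocyte-like cluster 38 stood at 218 CPM in the 254 cells of FMC_new and at 0 UMIs in the 13 cells of C-ON.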
